A study of Oryza sativa with 12 samples.

Results

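The subject is the difference between 2 rice genotypes in how their shoots responded to alkali. For each probe set of the array, the change from control medium to alkali medium was taken in K83 and in Jijing88, and the second was subtracted from the first. This difference is called the contrast here. A positive contrast means a larger rise, or a smaller fall, in K83, and a negative one the reverse. All 12 arrays of the series enter it, and 57258 probe sets were tested, the control probe sets of the array left out. No probe set was chosen by its values.

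The 4 groups were Jijing88 in control medium, Jijing88 under alkali, K83 in control medium and K83 under alkali, with 3 arrays each. Seedlings aged 7 days, raised hydroponically, went into new medium that either lacked alkali salts or held them at 50 mM, and shoots were taken after 24 h. Each array held RNA from a pool of 10 shoots. The labels call the arrays biological replicates and give neither the salts, the pH, the hour of day at harvest nor what distinguishes K83 from Jijing88. A p-value here therefore measures the spread between pools of shoots. The deposited values are log2 signals, so that a difference of 1 is a 2-fold change. A difference was called where its adjusted p-value from limma, a linear model with moderated variances, was under 0.05, with Benjamini-Hochberg adjustment over all probe sets. A gene was read from its brightest probe set, which left 17905 genes.

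Carbonate alkalinity combines sodium with a high pH. At high pH iron and several other metals become poorly soluble, and grasses answer iron shortage by making nicotianamine and phytosiderophores that chelate iron and by raising metal transporters in the plasma membrane. Shoots under such stress also commonly change chlorophyll synthesis, light harvesting and stress hormones. A gene can differ between genotypes in its response for quite different reasons of arithmetic: it moves in one genotype alone, it moves in opposite directions, or it moves the same way from unequal starting levels.

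Array medians lay between 5.12 and 5.18. The median standard deviation over the 3 arrays of a group was widest in Jijing88 alkali at 0.128, and narrowest in K83 alkali at 0.0976. Jijing88 control replicate 3 lay farthest from its group, with a mean absolute deviation of 0.124 over probe sets against 0.076 to 0.11 in the other arrays. The 25S ribosomal RNA signal was 9.68, 7.87 and 9.44 in Jijing88 alkali and between 7.84 and 8.53 in the other groups. The signal of 3′ over 5′ actin probe sets, a sign of RNA quality, had group means from 1.98 to 2.27 on the log2 scale. Of 6 leaf markers, 5 had group means above the median of all values, 5.15, in every group. The summed linear signal of these 6 was 44826 to 50882 in Jijing88 control, 48534 to 51149 in Jijing88 alkali, 52240 to 53326 in K83 control and 48562 to 53585 in K83 alkali. Below the median of all values lay 1 of 2 root markers in every group, and 5 or 6 of 10 seed markers. The part of such tissues in the results was not tested. In bulk shoots, fewer cells of a type and less RNA per cell cannot be told apart.

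The responses differed between the genotypes at 360 probe sets, 0.629% of those tested. The contrast was positive at 153 of them, or 0.267%, and negative at 207, or 0.362%. Its size reached 2-fold at 143, with a median size of 0.88 on the log2 scale. For comparison, alkali changed 8.36% of probe sets in Jijing88 and 6.46% in K83, and the genotypes differed at 11.6% in control medium and at 14.3% under alkali. These comparisons share arrays with the contrast. After centring each array on its median, 414 were called and 73.4% of them were negative, against 57.5% without centring. At the level of genes, 185 were called, 1.03% of those measured: 61 with a positive contrast, or 0.341%, and 124 with a negative one, or 0.693%. A name beyond a locus number exists for 42 of the 185. A further 142 called probe sets had no single gene in the annotation.

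How many probe sets passed depended on single arrays. Leaving out Jijing88 control replicate 3 raised the number to 646, and 322 of the 360 were called in both settings. Without K83 alkali replicate 1, 2 or 3 the number was 143, 136 or 107, and without K83 control replicate 2 or 3 it was 124 or 130. It was 186 without Jijing88 control replicate 1, 197 without Jijing88 alkali replicate 1 and 189 without Jijing88 alkali replicate 3. The other 3 arrays moved it to between 243 and 442. All 360 kept their sign in each of these 12 settings, which their choice by a large contrast on the same arrays made likely. Of the 360, 85 were called in all 12 settings.

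**Figure D1:**
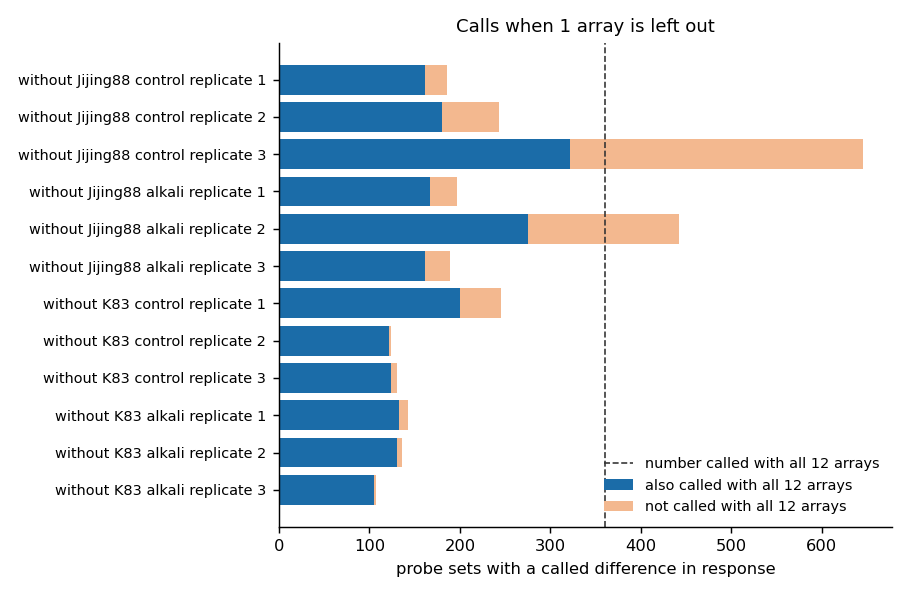
Number of probe sets with a called difference in response (horizontal axis) after leaving out each of the 12 arrays in turn. The dark part counts those also called with all 12 arrays, and the dashed line marks 360. Without Jijing88 control replicate 3 the bar reaches 646, of which 322 are shared, and without K83 alkali replicate 3 it stops at 107.

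In most of the 360 the response was called in 1 genotype alone. Jijing88 alone responded at 162, of which 96 rose and 66 fell in that genotype. The median size of the change was 0.79 in Jijing88 and 0.20 in K83, and the K83 value pointed the other way at 105. K83 alone responded at 120, of which 52 rose and 68 fell, with a median size of 0.67 in K83 and 0.20 in Jijing88. The Jijing88 value pointed the other way at 92. The choice by a large contrast on the same arrays and the rule of the classes make such unequal sizes and opposite signs likely. The line between these classes and the others is that of a threshold: an unadjusted p under 0.05 in the genotype without a call occurred at 66 of the 162 and at 51 of the 120.

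Both genotypes responded in opposite directions at 37 probe sets. Of these, 19 rose in Jijing88 and fell in K83, and 18 fell in Jijing88 and rose in K83. Both responded in the same direction, to an unequal extent, at 40. A rise in both was seen at 25, larger in K83 at 13 and larger in Jijing88 at 12, and a fall in both at 15, larger in K83 at 11. The 12 that rose more in Jijing88 did so by 0.97 to 4.55 there and by 0.32 to 2.67 in K83. The 11 that fell further in K83 changed by -3.33 to -1.03 there and by -1.42 to -0.38 in Jijing88. At 1 probe set neither genotype's own change was called. It belongs to LOC4328256, named here after its values were seen, on chromosome 2, with a contrast of -0.76 (adjusted p = 0.0491, limma), a change of 0.37 in Jijing88 (adjusted p = 0.0559) and of -0.38 in K83 (adjusted p = 0.0568).

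**Figure D2:**
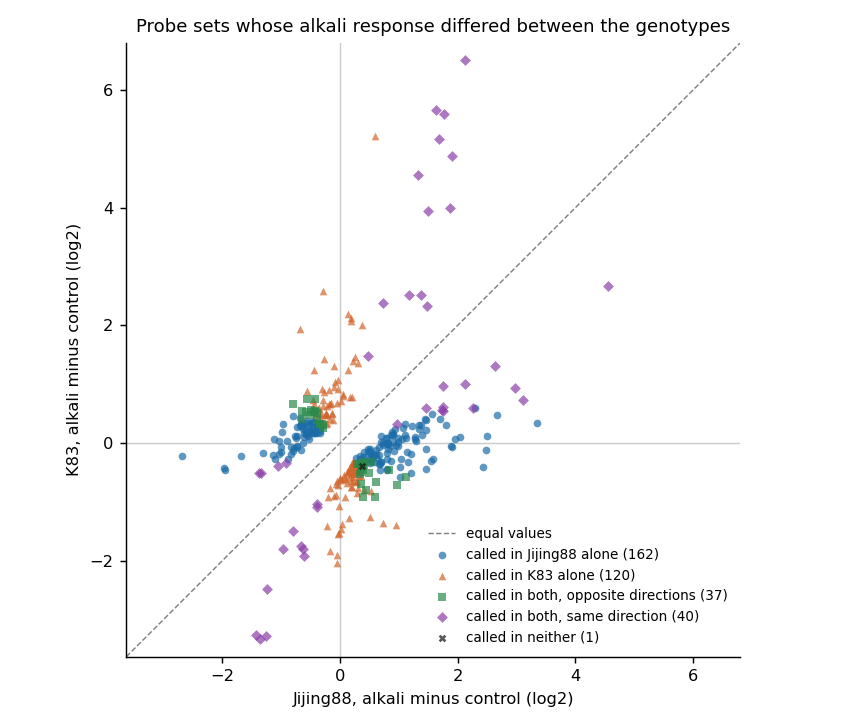
Change under alkali in Jijing88 (horizontal axis) and in K83 (vertical axis), both on the log2 scale, for the 360 probe sets with a called difference, coloured by response class. The points called in 1 genotype alone lie along the axes. The 13 diamonds above the dashed line at the upper right rose in both genotypes and more in K83, with K83 changes of up to 6.51 against up to 2.13 in Jijing88.

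The contrast equals the gap between the genotypes under alkali minus the gap in control medium, so each of the 360 can also be read by its starting level. The gap opened at 157: the genotypes did not differ by a call in control medium and did under alkali. The median size of the gap there was 0.16 in control medium and 0.83 under alkali, and K83 was the lower genotype under alkali at 99. The gap closed at 80, where it was called in control medium alone, with a median size of 0.77 before and 0.20 under alkali. It was called in both media with the same sign at 58, and with the sign turned at 65. The genotypes thus differed by a call in control medium at 203 of the 360, beside 11.6% of all probe sets. Since the contrast contains the control gap, a raised share is likely by its arithmetic.

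The 2 readings crossed unevenly. Of the 162 with a call in Jijing88 alone, the gap opened at 82 and closed at 23. Of the 120 with a call in K83 alone, it opened at 43 and closed at 46. Of the 37 with opposite responses, the sign of the gap turned at 18. These counts describe classes made from the same 12 arrays and were given no test.

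**Figure D3:**
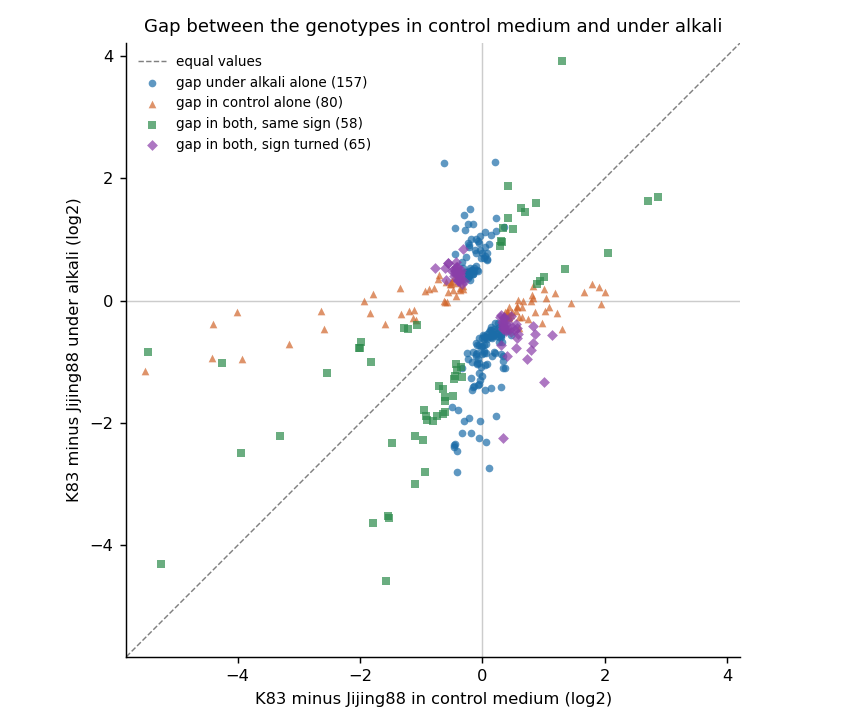
K83 minus Jijing88 in control medium (horizontal axis) and under alkali (vertical axis), on the log2 scale, for the 360 called probe sets, coloured by whether the gap was called in control medium, under alkali or both. The triangles near the horizontal zero line are the 80 gaps that closed, the most negative of which starts at -5.52.

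The 13 probe sets that rose in both genotypes and more in K83 started from unequal levels. Their change was 0.47 to 2.13 in Jijing88 (median 1.5) and 1.48 to 6.51 in K83 (median 4.0). In control medium 11 of the 13 were lower in K83, with a median gap of -3.16 over the 13 and a lowest gap of -5.52. On all 13, Jijing88 control replicate 3 was the highest of the 3 Jijing88 control arrays. Only 2 of the 13 belong to genes with a name, Nramp1 and IRT2, and both are metal transporters.

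Nramp1 (LOC4342862), a transporter that carries iron across the plasma membrane, lies on chromosome 7 at 9047200 to 9052036 in RefSeq assembly ASM3414082v1, whose build need not be that behind the array design. Its log2 signal was 10.92, 10.25 and 12.06 in Jijing88 control and 13.19, 12.76 and 12.99 in Jijing88 alkali. In K83 it was 7.17, 7.16 and 7.13 in control medium and 12.16, 11.90 and 12.03 under alkali. The 2 media did not overlap in either genotype, and K83 control was far below every other group.

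Nramp1 rose 29.4-fold in K83 and 3.73-fold in Jijing88, a contrast of 2.98 ± 0.44 (SE; adjusted p = 0.0122, limma). The control gap was -3.93 (adjusted p = 2.5e-06), and the gap under alkali, -0.95, was not called (adjusted p = 0.0613). The contrast ranged from 2.48, without Jijing88 control replicate 3, to 3.39 over the 12 settings that left out 1 array, and was called in all 12.

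IRT2 (LOC4333667, chromosome 3), a ferrous iron transporter of the ZIP family, had the same layout. It read 6.89, 6.89 and 8.15 in Jijing88 control, 9.19, 8.82 and 8.42 in Jijing88 alkali, 4.05, 4.47 and 3.92 in K83 control and 8.28, 8.26 and 7.75 in K83 alkali. The K83 control mean of 4.15 ± 0.29 (SD, n = 3) is below the median of all values and is taken as near background, so that the K83 rise of 3.95 is a lower bound. The contrast was 2.45 ± 0.43 (SE; adjusted p = 0.0267, limma). The call was lost in 5 of the 12 settings that left out 1 array, with adjusted p-values of 0.0619 without Jijing88 alkali replicate 3, 0.0668 and 0.0696 without K83 alkali replicates 1 and 2, and 0.0541 and 0.0679 without K83 control replicates 1 and 3.

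NAS1 and NAS2, neighbouring nicotianamine synthase genes on chromosome 3 named here after their values were seen, started even farther apart, and their responses did not differ by a call. NAS1 read 11.43, 9.96 and 13.42 in Jijing88 control against 5.39, 4.45 and 4.15 in K83 control, a gap of -6.94 (adjusted p = 5.93e-06, limma). The K83 control mean of 4.67 is near background, so that the sizes of this gap and of the NAS1 rise in K83 are lower bounds. Under alkali it was 13.50 ± 0.26 in Jijing88 and 8.08 ± 0.06 in K83 (SD, n = 3). Its contrast was 1.52 ± 0.85 (SE; adjusted p = 0.458), and 0.61 without Jijing88 control replicate 3, the array on which NAS1 was as high as under alkali.

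NAS2 gave a contrast of 1.68 ± 0.74 (SE; adjusted p = 0.333, limma), or 0.87 without Jijing88 control replicate 3. Both synthase genes rose in K83, by 3.42 and 3.14 (adjusted p = 0.00462 and 0.00326), while their Jijing88 changes of 1.90 and 1.46 were not called (adjusted p = 0.076 and 0.118). Under alkali the gap was -5.42 for NAS1 and -4.31 for NAS2, against -0.95 for Nramp1 and -0.71 for IRT2. The last 2 gaps were not called, yet every K83 alkali array of Nramp1 and of IRT2 lay below every Jijing88 alkali array.

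Of the 34 measured genes of iron acquisition and storage, 2 had a called contrast, Nramp1 and IRT2, both positive, beside 1.03% of all genes. Like all lists here, this one was chosen with earlier results of these data known, so its counts are a description and no test. The median contrast over the list was 0.02 beside -0.04 over all genes. In Jijing88 11 of the 34 rose and 1 fell, where 8.22% of all genes rose and 7.35% fell. In K83 8 rose and 3 fell, where 5.04% rose and 7.82% fell. In control medium 13 of the 34 were lower in K83 and 2 higher, where 9.58% of all genes were lower and 11.3% higher. BHLH063, NAAT1 and IRT1 are named here after their values were seen. BHLH063, a transcription factor of the iron response, had a contrast of 1.52 that was not called (adjusted p = 0.204, limma), with a K83 rise of 2.93 and a Jijing88 rise of 1.42. NAAT1, which makes a phytosiderophore precursor, had a contrast of -0.57 (adjusted p = 0.709), and IRT1 one of -0.46 (adjusted p = 0.744), neither of them called.

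Both genes with the largest positive contrast carry a locus number only and were laid out like Nramp1. LOC4351985 on chromosome 12 read 9.48, 8.96 and 10.98 in Jijing88 control, between 11.54 and 12.28 in Jijing88 alkali, 4.13, 3.97 and 4.76 in K83 control and 11.06, 10.55 and 10.78 in K83 alkali. Its contrast of 4.38 ± 0.56 (SE; adjusted p = 0.00454, limma) rests on a K83 control mean near background, so the K83 rise of 6.51 is a lower bound. LOC4333962 on chromosome 3 had a contrast of 3.82 ± 0.52 (SE; adjusted p = 0.00737), with group means of 8.66, 10.43, 4.65 and 10.24 in the same order. Its K83 control mean is near background too, and its 48.3-fold rise in K83 is likewise a lower bound. Both were called in all 12 settings that left out 1 array.

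**Figure D4:**
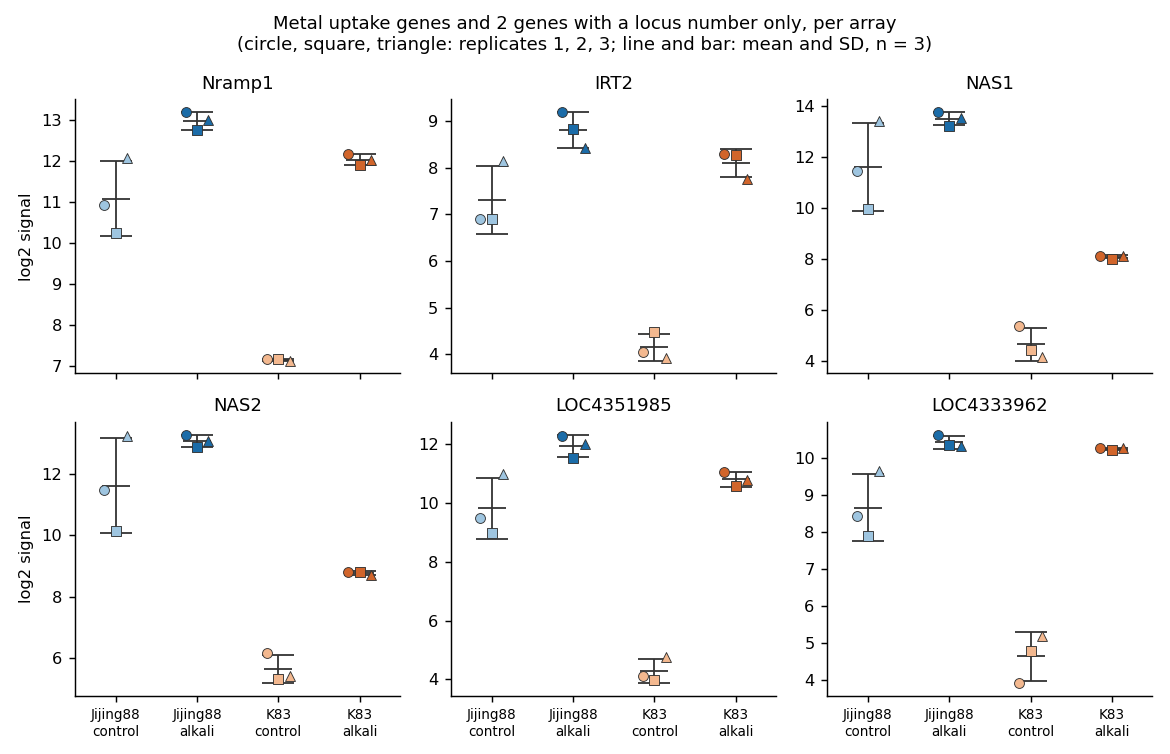
Log2 signal on each array (vertical axis) in the 4 groups for Nramp1, IRT2, NAS1, NAS2, LOC4351985 and LOC4333962, with the mean and standard deviation of 3 arrays. Jijing88 control replicate 3 (triangle) is the highest control array of Jijing88 in each panel, and K83 control is the lowest group, at 7.15 for Nramp1 and between 4.15 and 5.63 for the others.

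The called genes of chlorophyll synthesis and light harvesting had contrasts of the other sign. They rose in Jijing88, fell in K83, or did both. Of 18 chlorophyll genes, 2 had a called contrast, and of 15 photosynthesis genes, 3, all 5 negative. Over all genes 1.03% were called, 0.693% with a negative contrast. The medians of the lists were -0.12 and 0.02. The 2 lists hold genes that also serve as leaf markers: PORA and CAB2R, with negative contrasts, are 2 of the 6, and the median contrast of the 6 was -0.28. The other 4 leaf markers, named here after their values were seen, had contrasts that were not called, at 0.21 for RA, 0.16 for RBCS, -0.16 for RBCS1 and -0.40 for PORB. The part of leaf cell content in these results was not tested.

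PORA (LOC4337415, chromosome 4), the light-dependent protochlorophyllide oxidoreductase, responded in opposite directions. It read 8.80, 9.20 and 8.89 in Jijing88 control and 10.08, 9.96 and 10.21 under alkali, against 9.85, 10.25 and 10.18 in K83 control and 9.63, 9.51 and 9.44 under alkali. Every alkali array was above every control array in Jijing88 and below in K83. PORA rose by 1.12 in Jijing88 (adjusted p = 0.000152, limma) and fell by 0.57 in K83 (adjusted p = 0.0174), a contrast of -1.69 ± 0.18 (SE; adjusted p = 0.0014). The sign of the gap turned, from 1.13 in control medium to -0.56 under alkali, and the contrast was called in all 12 settings that left out 1 array.

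CHLH (LOC4332690, chromosome 3), the large subunit of magnesium chelatase, read 10.44, 10.88 and 10.50 in Jijing88 control and 11.39, 10.69 and 11.31 under alkali. In K83 it read 11.49, 11.64 and 11.60 in control medium and 10.90, 10.59 and 10.80 under alkali. It fell by 0.81 in K83 (adjusted p = 0.0124, limma), while the Jijing88 change of 0.53 was not called (adjusted p = 0.0783), and the contrast was -1.34 ± 0.24 (SE; adjusted p = 0.0288). The Jijing88 media overlapped through alkali replicate 2. The call was kept in 4 of the 12 settings that left out 1 array, and the adjusted p rose to at most 0.0811, without K83 control replicate 2. A dimmer CHLH probe set gave 0.05.

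GLK1 (LOC4340977, chromosome 6), a transcription factor that drives chloroplast development, fell in K83 alone. It read 9.23, 9.24 and 9.39 in K83 control and 8.02, 8.03 and 7.99 under alkali, a fall of 1.28 (adjusted p = 0.000139, limma). In Jijing88 it read 8.83, 9.26 and 8.78 in control medium and 9.34, 8.90 and 9.09 under alkali, and these arrays overlapped. The contrast was -1.43 ± 0.19 (SE; adjusted p = 0.00529), called in all 12 settings that left out 1 array.

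The 2 called chlorophyll a/b-binding proteins rose in Jijing88 alone. LHCP (chromosome 3) read 13.58, 13.61 and 13.60 in Jijing88 control and 14.19, 14.02 and 14.04 under alkali, and averaged 13.78 and 13.62 in K83, where its change was not called (adjusted p = 0.286, limma). Its contrast was -0.65 ± 0.11 (SE; adjusted p = 0.0269), kept in 5 of 12 settings, with adjusted p-values of up to 0.0826, without K83 alkali replicate 3.

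CAB2R (chromosome 1) had a contrast of -0.63 ± 0.13 (SE; adjusted p = 0.0476, limma), kept in 1 of 12 settings, and it reached 0.116 without K83 control replicate 2. It is read from a probe set that can bind several transcripts, and a further probe set of the gene gave -0.22. OSA15, listed with the synonym PSAG of a photosystem I subunit, fell in K83 by 0.66 with a contrast of -0.94 (adjusted p = 0.0474), but a dimmer probe set of it gave 0.40, and the mean of both, -0.27, was not called (adjusted p = 0.349). OsTrx03, a chloroplast thioredoxin of the f type, fell in K83 by 0.56 with a contrast of -0.93 ± 0.15 (SE; adjusted p = 0.0174), and lost the call without K83 alkali replicate 2 (adjusted p = 0.0517) and without K83 control replicate 3 (0.0508).

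Of 14 clock genes and photoreceptors, 3 had a called contrast, 1 positive and 2 negative, beside 1.03% of all genes. The list median was -0.15. CCA1 (LOC4344703, chromosome 8), a morning transcription factor of the clock, read 7.27, 7.45 and 7.96 in Jijing88 control and 8.48, 8.04 and 7.70 under alkali. In K83 it read 8.77, 8.77 and 9.03 in control medium and 7.58, 7.53 and 7.70 under alkali. It fell by 1.25 in K83 (adjusted p = 0.00191, limma), and the Jijing88 arrays overlapped. The contrast was -1.77 ± 0.27 (SE; adjusted p = 0.0142), called in all 12 settings that left out 1 array. The control gap of 1.30 closed to -0.47. A second CCA1 probe set near background gave 0.18, and the mean of both, -0.80, was not called (adjusted p = 0.053).

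PRR95 (LOC4347674, chromosome 9), a pseudo-response regulator of the clock, rose in both genotypes and more in Jijing88. It read 10.76, 10.16 and 10.64 in Jijing88 control and 12.70, 12.76 and 12.87 under alkali, a 4.79-fold rise. In K83 it read 9.93, 10.24 and 10.50 in control medium and 10.88, 10.75 and 10.83 under alkali, a 1.51-fold rise. The control arrays of the genotypes overlapped, and the alkali arrays were apart by 1.96. The contrast of -1.66 ± 0.22 (SE; adjusted p = 0.00579, limma) was called in all 12 settings that left out 1 array.

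LIR1 (chromosome 1), a light-induced chloroplast protein, rose in K83 from 13.13 to 13.92 and averaged 13.74 and 13.94 in Jijing88, so that a control gap of -0.61 closed to -0.02. Its contrast was 0.59 ± 0.11 (SE; adjusted p = 0.0394, limma), kept in 1 of 12 settings, with adjusted p-values of up to 0.103 without K83 alkali replicate 3. Among the 14 genes, 7 were lower in K83 in control medium and 1 was higher, beside 9.58% and 11.3% of all genes.

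**Figure D5:**
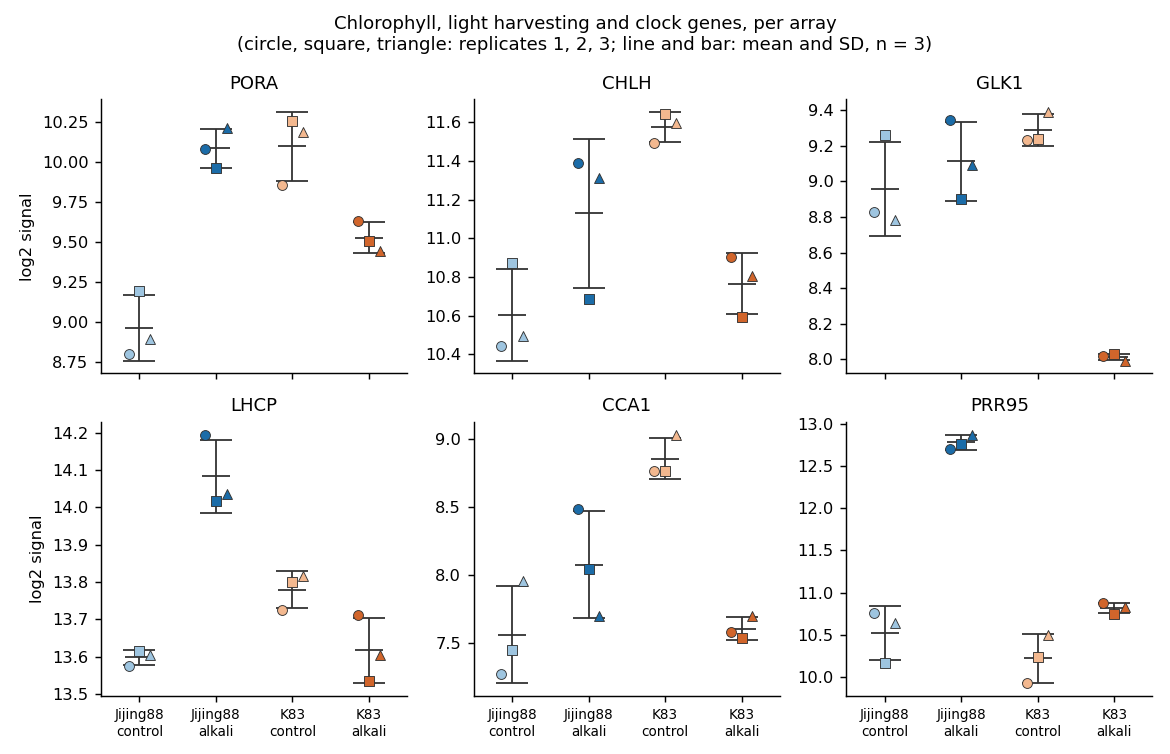
Log2 signal on each array (vertical axis) in the 4 groups for PORA, CHLH, GLK1, LHCP, CCA1 and PRR95, with the mean and standard deviation of 3 arrays. PORA moves up in Jijing88 and down in K83, GLK1 drops in K83 alone to 8.01, and PRR95 starts level and climbs to 12.78 in Jijing88 against 10.82 in K83.

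Among hormone genes, ABA1 (LOC4335984, chromosome 4), the zeaxanthin epoxidase early in abscisic acid synthesis, rose in Jijing88 alone. It read 8.25, 8.19 and 8.22 in Jijing88 control and 9.70, 9.04 and 9.38 under alkali, and 8.57, 8.64 and 8.54 in K83 control and 8.33, 8.15 and 8.31 under alkali. The Jijing88 arrays did not overlap between media. The rise was 1.15 in Jijing88 (adjusted p = 0.000158, limma), the K83 value was -0.32 (adjusted p = 0.181), and the contrast was -1.47 ± 0.18 (SE; adjusted p = 0.00406), called in all 12 settings that left out 1 array. It was the one called gene of 24 in the abscisic acid list, beside 1.03% of all genes. An unadjusted p under 0.05 (limma) occurred at 9 of the 24, or 37.5%, beside 17.7% of all genes. The list median was 0.02, with -0.82 over 4 genes of synthesis and breakdown and 0.08 over 20 of receptors and signalling.

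ASMT (LOC4346795, chromosome 9), an N-acetylserotonin methyltransferase that catalyses the last step of melatonin synthesis, came up from near background in Jijing88. It read 3.80, 3.62 and 4.0 in Jijing88 control and 6.83, 6.47 and 6.15 under alkali, against 3.58, 3.60 and 4.06 in K83 control and 4.17, 4.19 and 4.33 under alkali. With both control means below the median of all values, the Jijing88 rise of 2.67 is a lower bound. The contrast was -2.19 ± 0.24 (SE; adjusted p = 0.00168, limma), called in all 12 settings that left out 1 array. ASMT3, of the same family, gave -0.99 ± 0.19 (SE; adjusted p = 0.0394), but all 4 of its group means, 4.16 to 5.11, lay below the median of all values and so near background, and the size of its change is uncertain. The call was kept in 2 of 12 settings, with up to 0.0954 without K83 alkali replicate 2. These are 2 of 10 tryptophan and melatonin genes, beside 1.03% of all genes called, and the list median was -0.05.

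Auxin genes were called 3 times in 70, in both directions, beside 1.03% of all genes, with a list median of 0.01. ILL8 (LOC4342839, chromosome 7), of the family of hydrolases that free auxin from its amino acid conjugates, read 8.41, 8.40 and 8.13 in Jijing88 control and 7.42, 7.71 and 7.44 under alkali, and 8.94, 8.66 and 8.61 in K83 control and 9.27, 9.47 and 9.44 under alkali. It fell by 0.79 in Jijing88 and rose by 0.66 in K83, and the media did not overlap in either. The contrast of 1.45 ± 0.17 (SE; adjusted p = 0.00244, limma) was called in all 12 settings that left out 1 array.

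GH3-8 (LOC4343785, chromosome 7), which joins auxin to amino acids, rose in K83 alone, from 6.26 ± 0.22 to 7.66 ± 0.37 (SD, n = 3), with a contrast of 1.18 ± 0.23 (SE; adjusted p = 0.0394, limma). The call was kept in 1 of 12 settings, and its adjusted p reached 0.0999 without K83 alkali replicate 1. PIN5A (LOC4324368, chromosome 1), of the auxin efflux carrier family, fell in both genotypes and further in K83. It read 9.47, 9.52 and 9.56 in Jijing88 control, 8.67, 8.84 and 9.06 under alkali, 9.52, 9.58 and 9.55 in K83 control and 7.80, 7.72 and 7.89 under alkali. The starting levels differed by 0.04, and the contrast was -1.09 ± 0.14 (SE; adjusted p = 0.00406), called in all 12 settings that left out 1 array.

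In mineral nutrition, NIA1 (LOC4345795, chromosome 8), a nitrate reductase, was the one called gene of 26 for nitrogen, beside 1.03% of all genes. It read 8.73, 8.73 and 9.21 in Jijing88 control and 8.43, 8.08 and 8.35 under alkali, and 9.51, 9.22 and 9.58 in K83 control and 7.55, 7.54 and 7.46 under alkali. It fell by 0.60 in Jijing88 and by 1.92 in K83, a contrast of -1.31 ± 0.20 (SE; adjusted p = 0.013, limma), called in all 12 settings that left out 1 array. The gap turned from 0.55 to -0.77. A second probe set near background gave 0.03, and the mean of both, -0.64, was not called (adjusted p = 0.108).

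SPX3 (LOC4348535, chromosome 10), a repressor in phosphate signalling, went in opposite directions. It was the one called gene of 22 for phosphate, beside 1.03% of all genes. It read 5.09, 5.55 and 5.19 in Jijing88 control and 5.69, 6.19 and 5.81 under alkali, and 7.58, 7.42 and 7.01 in K83 control and 6.73, 6.64 and 6.68 under alkali. The contrast was -1.27 ± 0.23 (SE; adjusted p = 0.0305, limma), kept in 5 of 12 settings, with up to 0.0833 without K83 alkali replicate 3. K83 stayed above Jijing88, with a gap that narrowed from 2.06 to 0.79. MHX1 (chromosome 11), known in Arabidopsis as a vacuolar exchanger of magnesium and zinc for protons, fell by 1.38 in Jijing88 and by 0.50 in K83. Its contrast of 0.88 ± 0.18 (SE; adjusted p = 0.0463) lost the call after median centring (adjusted p = 0.0582), was kept in 2 of 12 settings and reached 0.119 without K83 alkali replicate 3. It was the one called gene of 31 for zinc, copper and manganese, beside 1.03% of all genes.

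Of 25 aquaporins and related channels, 2 were called, beside 1.03% of all genes, both with positive contrasts. Lsi6 (chromosome 6), a silicon channel of the NOD26-like family, fell in Jijing88 alone, from 10.89 ± 0.20 to 9.76 ± 0.16 (SD, n = 3), with 11.03 and 10.83 in K83. Its contrast was 0.93 ± 0.16 (SE; adjusted p = 0.0279, limma), kept in 4 of 12 settings, with up to 0.0854 without K83 alkali replicate 3. It is read from a probe set that can bind several transcripts. PIP2-7 (chromosome 9), a plasma membrane aquaporin, rose in K83 alone, from 11.62 ± 0.06 to 12.48 ± 0.09, with 11.85 and 11.57 in Jijing88. Its contrast of 1.14 ± 0.22 (SE; adjusted p = 0.0394) was kept in 2 of 12 settings, with up to 0.103 without K83 alkali replicate 3. Lsi1, a silicon channel used here as a root marker, had a contrast of -0.45 that was not called (adjusted p = 0.271). The other root marker, Lsi2, near background in all 4 groups, gave -0.92, not called either (adjusted p = 0.343). Both root markers had an unadjusted p under 0.05 (limma), beside 17.7% of all genes.

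Of 38 defence genes, 2 chitinases were called, in opposite directions, beside 1.03% of all genes. CH16 (chromosome 6) rose in Jijing88 by 1.45, where the K83 value of 0.41 was not called (adjusted p = 0.119, limma), and its contrast was -1.05 ± 0.20 (SE; adjusted p = 0.0394). Cht10 (chromosome 1) rose in K83 by 0.63, where the Jijing88 value was -0.29 (adjusted p = 0.143), and its contrast was 0.92 ± 0.15 (SE; adjusted p = 0.0212). The call of CH16 was kept in 2 of 12 settings, with up to 0.103 without K83 control replicate 2. That of Cht10 was kept in 6, with up to 0.0644 without K83 alkali replicate 3.

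The largest positive contrast in a named gene called in K83 alone was that of ELA3 (LOC4341858, chromosome 6), listed with the synonym ENODL18 of an early nodulin-like protein. It read 5.66, 5.38 and 5.81 in K83 control and 8.53, 7.96 and 8.14 under alkali, a 6.03-fold rise. In Jijing88 it read 5.70, 5.98 and 7.07 in control medium and 5.75, 6.25 and 5.89 under alkali. The Jijing88 arrays overlapped, with control replicate 3 the highest. The contrast was 2.88 ± 0.40 (SE; adjusted p = 0.00767, limma), or 2.47 without that array, and was called in all 12 settings that left out 1 array.

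TGAL11 (LOC4351527, chromosome 12), a bZIP transcription factor, rose more in Jijing88, from 5.18 to 6.93, than in K83, from 4.53 to 5.08, with a contrast of -1.20 ± 0.20 (SE; adjusted p = 0.0212, limma). It lost the call without K83 alkali replicate 3, K83 control replicate 2 or K83 control replicate 3, with up to 0.0592, and its K83 means lay near background. LSD1 (chromosome 8), a zinc finger protein, rose by 0.32 in Jijing88 and fell by 0.36 in K83, a contrast of -0.68 ± 0.11 (SE; adjusted p = 0.0189). Its 3 further probe sets gave -0.77, -0.84 and -0.72. The one with -0.84 had a mean of 3.78, near background, and was not called (adjusted p = 0.0726). The probe set used and those with -0.77 and -0.72 can bind several transcripts. The call of LSD1 was lost without K83 alkali replicate 2 or 3 or K83 control replicate 2, with up to 0.0651.

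Several other named genes had smaller or less stable contrasts. BGLU22, a beta-glucosidase, with -1.71 (adjusted p = 0.0434, limma), cap2 with -1.31 (0.045) and TID1, an alpha-tubulin, with 0.62 (0.0389) were called in Jijing88 alone. TID1 is read from a probe set that can bind several transcripts. HSP22.3, a small heat shock protein, fell in K83 alone and gave -0.80 (0.0385). It was the one call among 44 heat shock genes, beside 1.03% of all genes. SPO11-3, a homologue of the topoisomerase VI A subunit, fell in both and gave -0.65 (0.0306). Each of these 5 was kept in 1 to 4 of the 12 settings that left out 1 array, and the adjusted p reached 0.0883 to 0.114 at most. Among called genes named here after their values were seen, GF14G, a 14-3-3 protein, gave -0.78 (0.0167), and the arginine methyltransferases PRMT5 and PRMT10 gave -0.61 (0.0253) and -0.66 (0.0394).

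Of 74 cell cycle and replication genes, 2 had a called contrast, beside 1.03% of all genes. An unadjusted p under 0.05 (limma) occurred at 19, or 25.7%, beside 17.7% of all genes. The median contrast was -0.16 beside -0.04 over all genes. In control medium 31 of 74 were higher in K83 and 1 was lower, beside 11.3% and 9.58% of all genes. Under alkali 29 fell and 2 rose in K83, beside 7.82% and 5.04% of all genes. In Jijing88 12 fell and 7 rose, beside 7.35% and 8.22%. The median change was -0.21 in K83 and -0.15 in Jijing88. Only CKS1, a subunit of cyclin-dependent kinases, and POLD1, the catalytic subunit of DNA polymerase delta, had a called contrast, of -0.67 ± 0.12 (SE; adjusted p = 0.0253, limma) and -0.58 ± 0.12 (SE; 0.0447). CKS1 rose in Jijing88 from 9.89 to 10.59 and averaged 9.84 and 9.86 in K83. POLD1 fell in K83 by 0.38, which closed a control gap of 0.59. POLD1 is read from a probe set that can bind several transcripts. The call of CKS1 was kept in 5 of 12 settings and that of POLD1 in 3, with up to 0.0826 and 0.117 without K83 alkali replicate 3. The 9 shoot meristem markers had no called contrast (5 at an unadjusted p under 0.05, beside 17.7% of all genes), a median contrast of 0.19, and 7 of them lay below the median of all values in every group.

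In 12 of the 26 lists of pathways no gene was called by limma at its brightest probe set. Of their 477 genes together, 84, or 17.6%, had an unadjusted p under 0.05, beside 17.7% of all genes. These lists were LEA proteins and dehydrins, jasmonate, ethylene, cytokinin, organic acids with the glyoxylate cycle, potassium, sodium and proton transport, antioxidant enzymes, sugar and starch, osmolytes, stress transcription factors, expansins with wall synthesis, and the kinases of calcium signalling. By list, the share at an unadjusted p under 0.05 ran from 7.5% in jasmonate to 62.5% in LEA proteins and dehydrins. In the 14 lists with a call it ran from 15.7% in auxin to 44.4% in chlorophyll synthesis and breakdown. It was 42.3% in nitrogen and 35.5% in zinc, copper and manganese transport. The LEA share was 5 of 8 genes, with a median contrast of 0.47 beside -0.04 over all genes. The members with the smallest p included the dehydrin Dhn1 with a contrast of 0.73 (adjusted p = 0.0663), the potassium channel AKT1 with 0.61 (0.0579) and the kinase CIPK14 with -1.73 (0.0625). Dhn1 averaged 9.14 and 9.16 in Jijing88 and rose from 9.15 to 9.91 in K83. P5CS2, a proline synthesis enzyme, rose in both, by 1.30 in Jijing88 and 0.64 in K83, with a contrast of -0.66 that was not called (adjusted p = 0.111). These values do not show that the genotypes responded alike.

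Both genes with the largest negative contrast carry a locus number only. LOC4324612 on chromosome 1 read 7.31, 6.45 and 7.89 in Jijing88 control and 11.20, 10.06 and 10.43 under alkali, and 5.71, 5.61 and 5.58 in K83 control and 6.19, 5.70 and 6.04 under alkali. It rose 10.2-fold in Jijing88 alone, with a contrast of -3.00 ± 0.45 (SE; adjusted p = 0.0127, limma), called in all 12 settings that left out 1 array. LOC4324613, which lies beside it and was named after its values were seen, gave -1.26 ± 0.19 (SE; adjusted p = 0.0152).

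LOC4346629 on chromosome 9 read 9.44, 8.59 and 7.46 in Jijing88 control, 11.12, 10.90 and 10.78 under alkali, and averaged 8.59 and 8.19 in K83. Its contrast of -2.84 ± 0.49 (SE; adjusted p = 0.023, limma) was -2.32 without Jijing88 control replicate 3, the lowest Jijing88 array, and was kept in 5 of 12 settings, with up to 0.0694 without K83 control replicate 2. Its neighbour LOC4346628, named after its values were seen, fell in K83 by 1.36 and gave -2.11 ± 0.35 (SE; adjusted p = 0.0189). The Jijing88 rise of LOC4346628, 0.74, was not called (adjusted p = 0.0879), nor was the K83 value of LOC4346629, -0.40 (adjusted p = 0.579). The 2 adjacent genes thus pointed up in Jijing88 and down in K83. They fell into different response classes by which of these changes passed the threshold. Called genes lay on all 12 chromosomes, between 0.659% of the genes measured on chromosome 2 and 1.33% on chromosome 8.

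Which probe set stands for a gene mattered. Of the 42 named genes with a called contrast, 8 had further probe sets, 11 in all, of which 7 had the same sign and 2 were called. Those with the opposite sign belonged to CHLH, OSA15, CCA1 and NIA1, and all 4 were dimmer than the probe set used. Of the 42, 11 were called in each of the 12 settings that left out 1 array: ASMT, ABA1, ELA3, CCA1, GLK1, ILL8, PORA, Nramp1, PRR95, NIA1 and PIN5A.

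The reverse also occurred: 33 called probe sets were not the brightest of their gene, and at 27 of them, from 26 genes, the brightest one was not called. The smallest p among these was that of LOC4324944 on chromosome 1, named after its values were seen. Its dimmer probe set read 10.73, 10.29 and 11.71 in Jijing88 control, 12.58, 12.52 and 12.53 in Jijing88 alkali, 6.78, 6.22 and 6.52 in K83 control and 12.21, 12.16 and 12.12 in K83 alkali. The layout is that of Nramp1, with K83 control far below the other groups, no overlap between media in either genotype and Jijing88 control replicate 3 above its other arrays. The contrast there was 4.02 ± 0.37 (SE; adjusted p = 0.000425, limma). The brightest probe set of LOC4324944 averaged 11.99, 12.87, 10.87 and 12.53 in the same order, with a contrast of 0.78 ± 0.26 (SE; adjusted p = 0.191), so that the 2 probe sets agree in order and differ in size. AHP1 (LOC4346300, chromosome 8), also named after its values were seen, was called at a dimmer probe set and not at its brightest. At the dimmer one it rose by 0.52 in Jijing88 and fell by 0.32 in K83. The contrast there was -0.84 (adjusted p = 0.009, limma).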

How the data were processed

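Shoot RNA was measured on 12 Affymetrix rice arrays, and each deposited value is the log2 signal of 1 probe set on 1 array. RMA, a method that corrects, normalizes and summarizes Affymetrix probes, and limma appear among the tools in the submitters' processing notes, without version and without what each was used for. Base 2 was inferred from the range of the values. They were not normalized again. How many arrays a group has limits the precision, since arrays hold no read depth.

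A model of 4 group means with no covariates was fitted with limma 3.58.1 in R 4.3.3 (8 residual degrees of freedom). Of 57381 probe sets, 123 controls were left out. P-values are two-sided and adjusted over all probe sets of a contrast, genes included. The annotation gave a single gene for 22436 of the tested probe sets and more than 1 for 95, and 34727 had none. Where a gene had several probe sets, the brightest over the 12 arrays stood for it.

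Classes follow the calls in each genotype and in each medium. Named genes are, among named genes with a called contrast, the 6 largest in each response class and direction, the 2 largest per direction with a locus number only, and the called members of each list, up to 6, or the member with the smallest p. Other named genes are said to be chosen after their values were seen. The lists hold genes found by name, and members without a name are missing. Members, lists and rules were chosen with earlier results of these data known. Positions come from the RefSeq table of assembly ASM3414082v1.

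The alternatives were median centring, leaving out probe sets with no group mean above the median of all values, a weight per group, trended and robust moderation, a replicate block, leaving out each array, and averaging a gene's probe sets. On simulated data for the contrast over 57258 probe sets, 74% of log2 changes of 1 and 98% of changes of 2 were recovered. With them came 15 false calls, and 1 call was made with no change simulated. The simulated noise was independent between arrays, with 1 spread per probe set in all groups. Real groups differed in spread and some arrays had correlated deviations, so these figures need not carry over.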

Additional observations from a re-analysis of the deposited data

Results flagged for a closer look

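The genes named by the rule whose responses differed by the test of the difference itself are given with their contrast, K83 minus Jijing88 on the log2 scale. Positive contrasts were those of LOC4351985 (4.38), LOC4333962 (3.82), Nramp1 (2.98), ELA3 (2.88), IRT2 (2.45), ILL8 (1.45), GH3-8 (1.18), PIP2-7 (1.14), Lsi6 (0.93), Cht10 (0.92), MHX1 (0.88), TID1 (0.62) and LIR1 (0.59). Negative contrasts below -1 were those of LOC4324612 (-3.00), LOC4346629 (-2.84), ASMT (-2.19), CCA1 (-1.77), BGLU22 (-1.71), PORA (-1.69), PRR95 (-1.66), ABA1 (-1.47), GLK1 (-1.43), CHLH (-1.34), NIA1 (-1.31), cap2 (-1.31), SPX3 (-1.27), TGAL11 (-1.20), PIN5A (-1.09) and CH16 (-1.05). Smaller negative contrasts were those of ASMT3 (-0.99), OSA15 (-0.94), OsTrx03 (-0.93), HSP22.3 (-0.80), LSD1 (-0.68), CKS1 (-0.67), SPO11-3 (-0.65), LHCP (-0.65), CAB2R (-0.63) and POLD1 (-0.58). Dixon's test for a single outlying array was not run.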

How the results depend on the processing

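With dim probe sets left out, 633 were called (277 positive and 356 negative): 298 in Jijing88 alone, 194 in K83 alone, 80 in opposite directions and 2 in neither genotype, and 332 differed in control medium. Of the 633, 328 were among the original 360. The other 32 of the 360 were not tested in this setting, since every group mean lay below the median of all values. Trended and robust moderation gave 656 (279 positive and 377 negative): 316 in Jijing88 alone, 219 in K83 alone and 20 in neither, with 316 that differed in control medium. Median centring put 2 in neither class, and weights per group put 0 there. With the replicate block the number was 322, with 0 in neither class, and 263 were among the 360. Of 18 pairs of arrays with the same number, 7 had deviations that correlated above 0.1. Most of these 7 joined arrays numbered 1, with correlations of 0.154 to 0.195. The main model had no block, since the labels give a number no meaning beyond biological replicate. What the correlated arrays had in common was not tested. The block ended the calls of cap2, LIR1, OSA15, MHX1, CAB2R, POLD1 and LOC4328256, and of 2 further called genes.

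Leaving out 1 array gave 107 to 646 calls (43 to 343 positive, 64 to 303 negative), 44 to 338 in Jijing88 alone, 30 to 151 in K83 alone, 13 to 67 in opposite directions, 17 to 82 in the same direction, 0 to 8 in neither and 66 to 248 that differed in control medium. Without Jijing88 control replicate 3 the share of negative calls was 46.9%, and in the other 11 settings 55.1% to 67.5%. No called gene named here changed sign under any alternative, which their choice on the same arrays made likely. Besides the block, calls ended for TID1 and MHX1 after median centring, BGLU22, IRT2 and LOC4346629 under trended and robust moderation, GH3-8 and CAB2R with weights per group, and TID1, CCA1, CHLH, OSA15, NIA1 and CAB2R with the mean of all probe sets. Group means near background limit what can be said of ASMT, ASMT3, IRT2, NAS1, TGAL11, LOC4351985 and LOC4333962.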
